A study of Mus musculus with 24 samples.

Results

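The Zfp genes are the mouse genes for zinc finger proteins that carry this prefix and a number, and 238 of them were measured above a low level in interscapular brown fat. They were chosen as all genes of the authors' deposited tables with a symbol made of Zfp and digits alone, with 1 such gene left out by the rule, and with a mean of 1 RPKM or more in at least 1 of 6 groups. RPKM are reads scaled to gene length and to the library total. Of 279 genes with such a symbol, 41 stayed under this minimum, and the tables held 13162 genes in all. The members were thus selected on their group means, and the levels below are a description with no test. Just inside the minimum were Zfp712, Zfp444 and Zfp94, whose highest deposited means were 1.03, 1.04 and 1.06 RPKM, and just outside were Zfp362, Zfp11 and Zfp521 at 0.993, 0.961 and 0.961.

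Most proteins of this family bind DNA through rows of C2H2 fingers, in which a zinc ion is held by a pair of cysteines and a pair of histidines. A large share of them also carry a KRAB box, which recruits Trim28 and through it the histone methyltransferase Setdb1, heterochromatin proteins and histone deacetylases, and such proteins are best known for silencing retroelements. The prefix is historical, and the family also holds activators, RNA-binding proteins, ubiquitin ligases and cytoskeletal proteins. Brown fat burns fuel for heat, and Zfp423 and a few relatives are known for steering adipocyte identity.

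The samples were from male mice on a C57BL/6 background aged 10 to 12 weeks, and brown fat was taken at ZT10, that is, late in the light period. Control mice carried floxed Hdac3 alleles and no Cre. KO mice carried the same alleles together with Ucp1-cre, which deletes Hdac3, a histone deacetylase of nuclear receptor corepressor complexes, in brown adipocytes. Whole tissue was sequenced, so cells without the Cre are part of each library. Each genotype had a group kept at 22 °C, a group held at 15 °C for 24 h and then at 22 °C for 24 h, and a group held at 15 °C for 24 h and then at 22 °C for 7 d, with 4 libraries in each of the 6 groups. The labels speak of biological replicates and do not say that each library was a mouse of its own, and what the p-values measure is library-to-library spread. In whole tissue, fewer cells of a type and less RNA per cell cannot be told apart.

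Library totals lay between 4.64e+06 and 1.25e+07 reads, and at the mean total a member rested on a median of 72.9 reads per library (range 9.09 to 1857). The deposited tables give 1 mean per group and no library values, so the spread between libraries enters through the authors' adjusted p. The deposited Hdac3 means were 26.1, 27.1 and 25.4 RPKM in Control and 8.57, 6.43 and 7.43 in KO, in the order 22 °C, 24 h and 7 d of recovery. The 9 brown adipocyte markers summed to between 13469 and 26284 RPKM in every group, with none at 0. Single markers moved far more than this sum. Ucp1 had deposited means of 1607, 4966 and 2948 RPKM in Control and 32.8, 3884 and 2163 in KO, in the same order. Other lists also differed between groups. Macrophage markers summed to 86.5 RPKM in Control at 22 °C and 246 at 24 h, nerve and glia markers to 33.9 in Control and 3.92 in KO at 22 °C, and skeletal muscle markers to 106 and 632 in Control at 22 °C and 7 d. Lymphocyte markers stayed at or below 3.01 RPKM in all 6 groups. Only 3 of the 6 nerve and glia markers and 3 of the 7 lymphocyte markers were listed, so these sums rest on few genes.

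The members were mostly transcripts of low abundance. Their highest group mean reached 10 RPKM in 21 of 238 and stayed under 2 RPKM in 60, and none was among the 10% of genes with the highest means. A total of 185 members were at 1 RPKM or more in all 6 groups and 13 in only 1 group. The median member stood at 2.85 RPKM in Control at 22 °C, where the median of all genes was 5.46 RPKM. Summed deposited means of the members were 1026 RPKM in Control at 22 °C, 882 at 24 h and 874 at 7 d, and 827, 801 and 804 RPKM in the KO groups. Of the 238 members, 140 had their highest deposited mean in Control at 22 °C, against 21 and 22 in the other Control groups. In the KO groups at 22 °C, 24 h and 7 d this was 33, 17 and 5. The same count for all genes was not made. Their median was also highest in Control at 22 °C, with 5.18 and 5.32 RPKM in the other Control groups and 4.67, 4.49 and 4.95 in KO. The deposited means leave out the authors' normalization factors, which shift all genes of a comparison alike.

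A search for fixed KRAB patterns in the predicted proteins split the members into 2 classes of nearly equal size. A divergent box can be missed by such patterns, so the class without a KRAB box means no match. A KRAB box was found in the predicted protein of 119 members and not found in 117, and no coding transcript was matched for Zfp783 and Zfp939. Members with a KRAB box had a median of 12 C2H2 fingers (range 2 to 33) and those without it 7 (range 0 to 36). Only 6 members had no C2H2 finger by this pattern, namely Zfp36, Zfp185, Zfp330, Zfp503, Zfp703 and Zfp839. The highest group mean had a median of 2.47 RPKM with a KRAB box and 3.89 without it, both on the scale per length. In gene order, 97 members lay next to another member, 70 of them with a KRAB box, in 34 runs of up to 6 genes.

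The 5 most abundant members were Zfp91, Zfp207, Zfp106, Zfp644 and Zfp655. Zfp91, a ubiquitin ligase of the NF-kB pathway, had deposited means of 30.3, 43.4 and 34.1 RPKM in Control and 21.6, 41.1 and 31.7 in KO, and was highest at 24 h of recovery in both genotypes. Zfp106, an RNA-binding protein needed by motor neurons, had deposited means of 21.7, 29.0 and 24.6 RPKM in Control and 16.7, 27.9 and 26.1 in KO, in the same order of times. Zfp207, which helps to assemble the mitotic spindle, stayed between 22.4 and 30.1 RPKM and passed the authors' adjusted p in no comparison. Zfp655 lay between 13.8 and 17.3 RPKM, also with no call. Zfp644, a partner of the H3K9 methyltransferases G9a and GLP, was the only one of the 5 that differed between genotypes in the deposited tables, and its values follow with that comparison.

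In Control mice, many more Zfp transcripts were lower than higher 24 h after the cold, when set against mice kept at 22 °C. At the authors' adjusted p under 0.05, 30 of 238 members were lower (12.6%) and 2 were higher (0.840%) than at 22 °C, where 8.67% of all listed genes were lower and 13.1% higher. Among all genes with a group mean of 1 RPKM or more, 9.05% were lower and 13.7% higher. The median log2 fold change of the members was -0.23 and that of all listed genes 0.01. Of the members, 77.7% lay below 0, whether called or not, and of all listed genes 48.7%. A like lean was seen at each level of abundance, with 85.1% of members under 2 RPKM below 0 (49.9% of all genes at that level), 71.1% between 2 and 5 RPKM (57.8%) and 75% from 5 RPKM on (43.9%). All genes under 2 RPKM were held to no minimum of 1 RPKM, unlike the members, so that level is an unlike comparison. Low members that passed the minimum only through Control at 22 °C can lie below 0 here by that choice itself. In the same comparison 4 of the 9 brown adipocyte markers were higher and 2 lower. All 8 listed macrophage markers were higher, as were 4 proliferation markers and 3 fibroblast and preadipocyte markers. The endothelial list and the nerve and glia list had 1 higher marker each. Their part in the result was not tested.

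**Figure D1:**
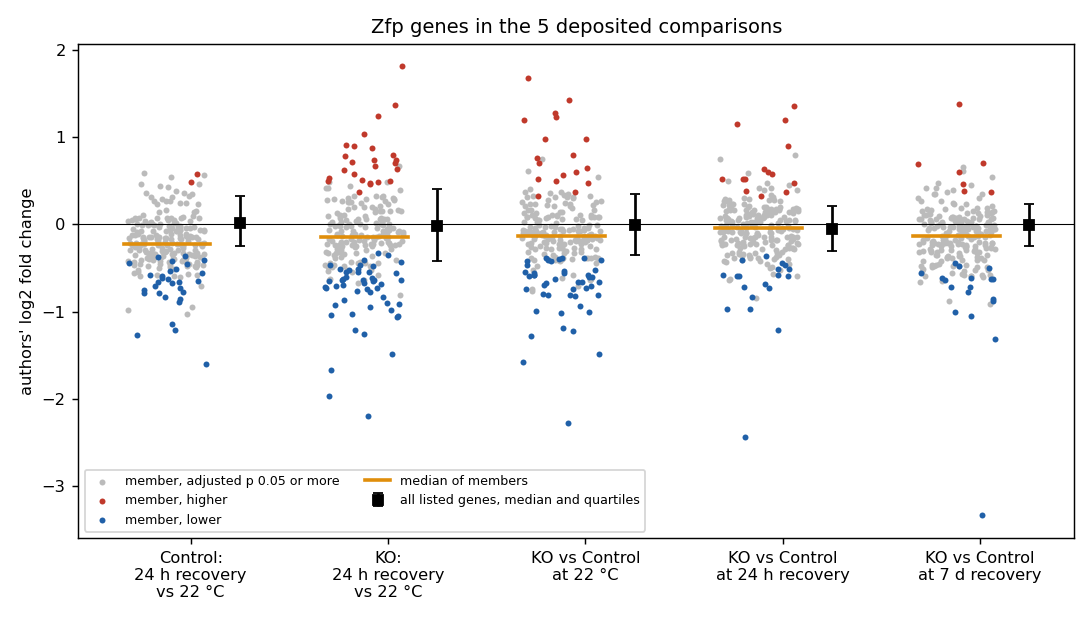
Deposited log2 fold changes of the members (points) in the 5 comparisons, with coloured points past the authors' adjusted p of 0.05, the members' median as an orange line, and the median and quartiles of all listed genes as a black square with bars. The members' median lies below that of all listed genes in the Control recovery comparison (-0.23 against 0.01), and Zfp185 is the lowest point of the 7 d comparison at -3.33.

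The members lower in Control after recovery were led by Zfp703. This corepressor of the NET family, which lacks the usual finger rows, went from a deposited mean of 5.00 to 1.59 RPKM (3.02-fold lower, adjusted p = 1.2e-04). Zfp13 went from 1.59 to 0.630 RPKM (2.41-fold lower, adjusted p = 0.019) and is the member with no entry in the 7 d table. Zfp395 was 2.31-fold lower in the authors' deposited table (adjusted p = 3.7e-05), from 2.73 to 1.13 RPKM. Zfp783 was 2.20-fold lower (deposited adjusted p = 1.2e-04) and Zfp169 was 1.85-fold lower (adjusted p = 0.0057). The 2 members that rose were the abundant Zfp91 (1.49-fold, adjusted p = 7.9e-05) and Zfp106 (1.4-fold, adjusted p = 0.0035), as deposited.

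The KRAB class held 10 of the lower members and 0 of the higher ones in this Control comparison, and the class without a KRAB box 19 and 2. Their medians were -0.25 and -0.17 on the log2 scale of the deposited fold changes. Among 18 genes of the KRAB corepressor machinery, 4 were lower (22.2%) and 1 higher (5.56%), beside 8.67% and 13.1% of all listed genes. The 4 were Setdb1 (log2 fold change -0.39), Cbx3 (-0.46), Atf7ip (-0.67) and Fam208a (-0.48), and the higher one was Chd3 (1.59), a remodeller of NuRD complexes, all in the authors' deposited table. Trim28 itself had a deposited log2 fold change of -0.30 with adjusted p = 0.088. Of 68 other zinc finger genes (Zbtb, Zscan, Zkscan and Zfp names with letters), 6 were lower (8.82%) and 2 higher (2.94%), with a median of -0.19. Their lower share was near that of all listed genes. Of these 68 genes, 80.9% lay below 0, whether called or not, beside 77.7% of the members and 48.7% of all listed genes. The lean below 0 was thus not particular to the members.

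In KO mice, the same recovery comparison called more members in both directions. A total of 50 of 238 members were lower (21%) and 25 higher (10.5%) at 24 h than at 22 °C, beside 19.8% of all listed genes lower and 22.1% higher. The share of lower members was thus near that of all genes, while higher members were fewer than among all genes. The median log2 fold change was -0.15 (all listed genes -0.02), with 64.3% of members and 51.8% of all listed genes below 0. Of the 68 other zinc finger genes, 64.7% lay below 0. By abundance, the share below 0 was 74.3% of members under 2 RPKM (63.3% of all genes at that level), 56.7% between 2 and 5 RPKM (59.8%), where the order turned, and 57.5% from 5 RPKM on (42.5%). Under 2 RPKM, all genes again had no minimum of 1 RPKM, unlike the members. By class, 21 members with a KRAB box were lower (17.6%) and 9 higher (7.56%), and 28 without it were lower (23.9%) and 16 higher (13.7%). Of the marker lists, brown adipocyte markers had 4 higher and 3 lower, and Ucp1 went from 32.8 to 3884 RPKM. Fibroblast and preadipocyte markers had 1 higher and 3 lower, proliferation markers 2 higher, and endothelial and lymphocyte markers 1 lower each. Nerve and glia markers had 1 higher (3.92 to 18.0 RPKM in sum), and macrophage markers no call. Their part in the result was not tested.

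Zfp36 had the largest drop in KO recovery. This gene encodes tristetraprolin, which binds AU-rich messages and hastens their decay, and its deposited mean went from 28.0 to 6.29 RPKM (4.58-fold lower, adjusted p = 2.6e-05). In Control its deposited means were 10.5 and 4.99 RPKM, with adjusted p = 0.105. Zfp395 was 3.91-fold lower in KO recovery (adjusted p = 1.8e-14), Zfp703 was 3.17-fold lower (adjusted p = 5.9e-06), and Zfp185, an actin-associated LIM protein, was 2.80-fold lower (adjusted p = 4.3e-04), all as deposited. The deposited mean of Zfp598, a ubiquitin ligase that senses collided ribosomes, went from 15.4 to 6.65 RPKM (2.38-fold lower, adjusted p = 2.6e-13). The members that rose most were Zfp691, from 1.14 to 4.09 RPKM (3.50-fold, adjusted p = 1.9e-12), and Zfp641, from 0.672 to 1.79 RPKM (2.58-fold, adjusted p = 5.7e-08), in the authors' deposited table. Zfp27, Zfp961 and Zfp91 were 2.05-, 1.88- and 1.86-fold higher there, with adjusted p of 2.4e-07, 6.5e-05 and 1.4e-11.

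Of the corepressor genes, 6 were lower (33.3%) and 3 higher (16.7%) in KO recovery, beside 19.8% and 22.1% of all listed genes. Trim28 was at 14.3 RPKM at 22 °C and 8.64 at 24 h (deposited log2 fold change -0.76, adjusted p = 9.3e-08), and Dnmt3a, a de novo DNA methyltransferase, had a deposited log2 fold change of -0.77. Uhrf1, which guides maintenance methylation, had a deposited log2 fold change of 2.21 in the other direction.

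The recovery comparisons of the 2 genotypes share no library. They had 12 lower members in common, which is 40.0% of the Control list and 24.0% of the KO list, and both members higher in Control, Zfp91 and Zfp106, were among the 25 higher in KO. The common lower members were Zfp68, Zfp87, Zfp169, Zfp266, Zfp275, Zfp330, Zfp366, Zfp395, Zfp449, Zfp687, Zfp703 and Zfp747. No member was lower in one list and higher in the other. The same overlaps among all called genes were not worked out, so they cannot be read as a trait of the Zfp genes. Zfp687, which forms a chromatin complex with Zfp592, had deposited means of 3.60 and 2.34 RPKM in Control and 3.0 and 1.84 in KO. Zfp366, known from dendritic cells, had 2.93 and 1.76 RPKM in Control and 2.39 and 1.48 in KO, as deposited.

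Of the 3 genotype comparisons, the one at 22 °C called the most Zfp genes. By the authors' deposited test, 45 of 238 members were lower in KO (18.9%) and 18 higher (7.56%), beside 18.0% of all listed genes lower and 16.3% higher. The members' median log2 fold change was -0.14 (all listed genes -0.01), and 67.2% of members lay below 0, against 51.1% of all listed genes. The scale of the deposited group means leaves out the authors' normalization factors, and every gene there shifts by -0.24. This shift by itself adds to the lower side, and the counts there were 90 lower and 9 higher. The share of all genes called on that scale was not worked out. By class, 21 members with a KRAB box were lower and 5 higher, and 23 without it were lower and 13 higher. Brown adipocyte markers had 3 higher and 3 lower, with Ucp1 at 1607 RPKM in Control and 32.8 in KO. Nerve and glia markers, which summed to 33.9 RPKM in Control and 3.92 in KO, had 1 lower. Lymphocyte markers had 2 higher, and macrophage and fibroblast markers 1 higher each. Their part in the result was not tested.

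The lower members at 22 °C were led by Zfp641, with deposited means of 3.83 RPKM in Control and 0.672 in KO (4.83-fold lower, adjusted p = 1.6e-22). Zfp691 followed with 4.0 and 1.14 RPKM (2.98-fold lower, adjusted p = 2.8e-09), as deposited. Both genes stood lower in this KO group than in any other of the 6 groups, and the same KO libraries enter the KO recovery comparison, so the calls of the 2 comparisons are not separate evidence. Zfp418, a KRAB protein, had deposited means of 1.31 and 0.393 RPKM (2.79-fold lower, adjusted p = 2.3e-04). Zfp185 and Zfp961 were 2.44- and 2.33-fold lower, with deposited adjusted p of 7.9e-04 and 3.3e-08. The higher members were led by Zfp36 (10.5 RPKM in Control and 28.0 in KO, 3.18-fold, adjusted p = 0.0018) and Zfp703 (5.00 and 11.3 RPKM, 2.68-fold, adjusted p = 1.5e-04) in the authors' deposited table. Zfp612, Zfp608 and Zfp598 were 2.43-, 2.35- and 2.29-fold higher, with deposited adjusted p of 4.5e-04, 2.9e-09 and 3.8e-12.

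**Figure D2:**
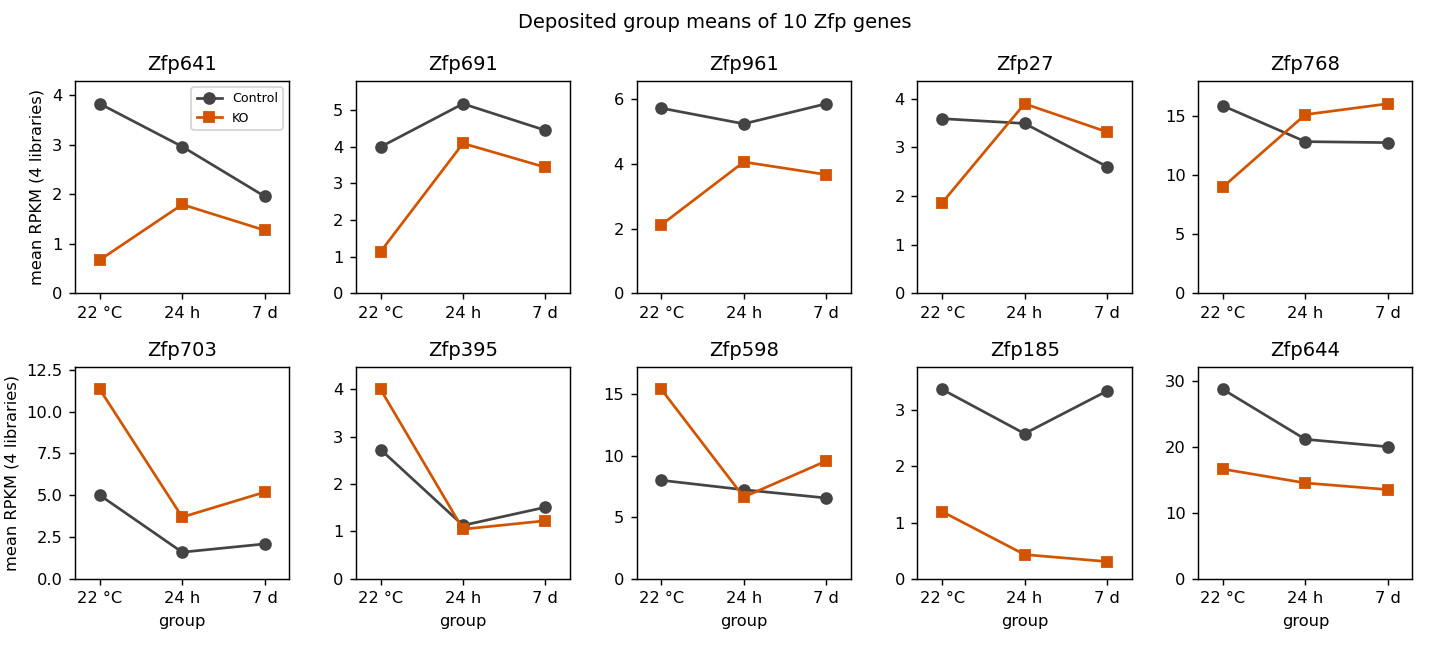
Deposited mean RPKM of 10 members in the 6 groups (Control as grey circles, KO as orange squares, each mean over 4 libraries, with no error bars because library values are not in the tables). Zfp641 and Zfp691 are lowest in KO at 22 °C (0.672 and 1.14 RPKM), Zfp703 is higher in KO at each time, and Zfp185 is lower in KO at each time.

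The bases upstream of 4 of these genes are shown as examples of members that differed between genotypes. Zfp641 and Zfp691 had the largest folds of the lower members at 22 °C, Zfp598 was among the 5 largest of the higher ones, and Zfp185 had the largest fold at 7 d. Each run is the 200 bases before the RefSeq start on GRCm38.p6, read 5′ to 3′ on the gene's strand, with capitals at the GC box (GGGCGG or CCGCCC) and the CCAAT box (CCAAT or ATTGG).
Zfp641, chr15:98296162-98296361, minus strand: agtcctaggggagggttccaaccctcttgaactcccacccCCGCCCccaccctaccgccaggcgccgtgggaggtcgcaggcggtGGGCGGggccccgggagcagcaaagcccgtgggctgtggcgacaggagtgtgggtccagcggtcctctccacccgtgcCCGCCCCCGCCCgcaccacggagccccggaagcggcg
Zfp691, chr4:119174196-119174395, minus strand: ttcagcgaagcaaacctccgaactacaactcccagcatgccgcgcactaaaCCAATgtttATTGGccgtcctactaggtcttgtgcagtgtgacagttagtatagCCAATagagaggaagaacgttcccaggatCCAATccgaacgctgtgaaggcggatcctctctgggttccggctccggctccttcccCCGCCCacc
Zfp598, chr17:24669487-24669686, plus strand: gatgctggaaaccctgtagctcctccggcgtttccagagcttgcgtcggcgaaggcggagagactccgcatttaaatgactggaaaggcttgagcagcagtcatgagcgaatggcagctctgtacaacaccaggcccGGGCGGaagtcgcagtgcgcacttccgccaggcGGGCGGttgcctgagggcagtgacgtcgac
Zfp185, chrX:72987139-72987338, plus strand: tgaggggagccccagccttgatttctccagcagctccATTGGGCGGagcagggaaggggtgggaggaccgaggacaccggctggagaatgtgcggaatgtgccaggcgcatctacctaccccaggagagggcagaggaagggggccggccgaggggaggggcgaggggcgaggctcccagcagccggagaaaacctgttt
Zfp641 had 4 GC boxes, Zfp691 had 4 CCAAT boxes and 1 GC box, Zfp598 had 2 GC boxes, and Zfp185 had 1 of each, overlapping. The first of 2 RefSeq entries was used for Zfp691.

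Such windows were matched for 198 of the 238 members. A GC box was present in 43.9% of them and in 31.3% of all 27025 windows, and a CCAAT box in 44.4% and 30.0%. All 27025 windows were taken with no minimum level in brown fat, while the members had to pass one, so the 2 sets are unlike. The members' windows had a median GC content of 56.5%, where all windows had 53%. The nuclear receptor motif AAGGTCA, on either strand, was in 3 members' windows (1.52%, all windows 3.15%), and the cAMP response element TGACGTCA was in 7 (3.54%, all windows 1.55%). Among the 37 matched members lower in KO at 22 °C, 51.4% had a GC box and 40.5% a CCAAT box, and among the 11 matched members higher in KO, 54.5% and 27.3%. These matches are letters in a window and not sites of binding.

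After 24 h of recovery, 19 of 238 members were lower in KO than in Control (7.98%) and 14 higher (5.88%), beside 7.96% and 10.5% of all listed genes. The share of lower members was near that of all genes and the share of higher members was smaller, while the median was -0.05 for the members and for all listed genes. Brown adipocyte markers (18696 RPKM in Control, 26284 in KO) had 3 higher and 1 lower. Fibroblast and preadipocyte markers (460 and 289, 3 lower) and endothelial markers (180 and 146, 2 lower) were lower in sum. The same held for macrophage markers (246 and 140, 1 lower) and nerve and glia markers (50.4 and 18.0, 1 lower). Their part in the result was not tested. On the scale of the group means, which shifts every gene by -0.14, the split became 35 lower and 6 higher. The share of all genes there was not worked out. Zfp185 was 5.40-fold lower, with deposited means of 2.58 and 0.430 RPKM (adjusted p = 4.7e-09). The KRAB gene Zfp189 was 2.31-fold lower (4.54 and 1.80 RPKM, deposited adjusted p = 9.3e-05), and Zfp658, Zfp784 and Zfp651 were 1.96-, 1.96- and 1.78-fold lower, with adjusted p of 0.048, 0.014 and 0.0023. Among the higher members the authors' deposited table had Zfp703 (2.55-fold, adjusted p = 0.0017), Zfp799 (2.29-fold, adjusted p = 4.6e-08), Zfp708 (2.21-fold, adjusted p = 1.6e-04), Zfp30 (1.86-fold, adjusted p = 0.022) and Zfp608 (1.55-fold, adjusted p = 0.011).

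After 7 d of recovery, 18 of 237 members were lower in KO (7.59%) and 7 higher (2.95%), beside 6.14% and 9.18% of all listed genes. The members' median was -0.13 (all listed genes -0.01), and 66.2% of members lay below 0, against 51.3%. The lean below 0 was 74.0% for members under 2 RPKM (60.4% of all genes at that level) and 50.0% for members from 5 RPKM on (43.4%). As before, all genes under 2 RPKM had no minimum of 1 RPKM, unlike the members. The KRAB class had 11 lower (9.24%) and 1 higher (0.840%) with a median of -0.21. The class without a KRAB box had 7 lower (6.03%) and 6 higher (5.17%) with a median of -0.08. A test of that difference between classes was not run. Brown adipocyte markers (15849 RPKM in Control, 24338 in KO) had 2 higher. Nerve and glia markers (27.5 and 6.73) had 2 lower, and erythroid markers (676 and 1147) 2 higher. Fibroblast and preadipocyte markers (402 and 282) had 1 lower, and endothelial markers (152 and 156) 1 higher. The part of these lists in the result was not tested. On the scale of the group means, which shifts every gene by -0.066, the split became 26 lower and 4 higher. The share of all genes there was not worked out.

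Zfp185 had the largest fold of any member in any comparison at 7 d. Its deposited means were 3.34 RPKM in Control and 0.306 in KO (10.1-fold lower, adjusted p = 3.8e-15). Then 4 members followed in the lower list, the KRAB genes Zfp964 (2.48-fold, adjusted p = 5.5e-04), Zfp763 (2.08-fold, adjusted p = 0.035), Zfp658 (2.01-fold, adjusted p = 0.026) and Zfp128 (1.83-fold, adjusted p = 0.025), as deposited. Zfp703 again had the largest fold among the higher members (2.61-fold, adjusted p = 0.0011), followed in the deposited table by Zfp770 (1.63-fold, adjusted p = 0.0056), the Zfp703 relative Zfp503 (1.62-fold, adjusted p = 0.036), Zfp598 (1.51-fold, adjusted p = 0.0039) and Zfp740 (1.38-fold, adjusted p = 0.0074). The call of Zfp503 was lost on the scale of the group means (adjusted p = 0.056).

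**Figure D3:**
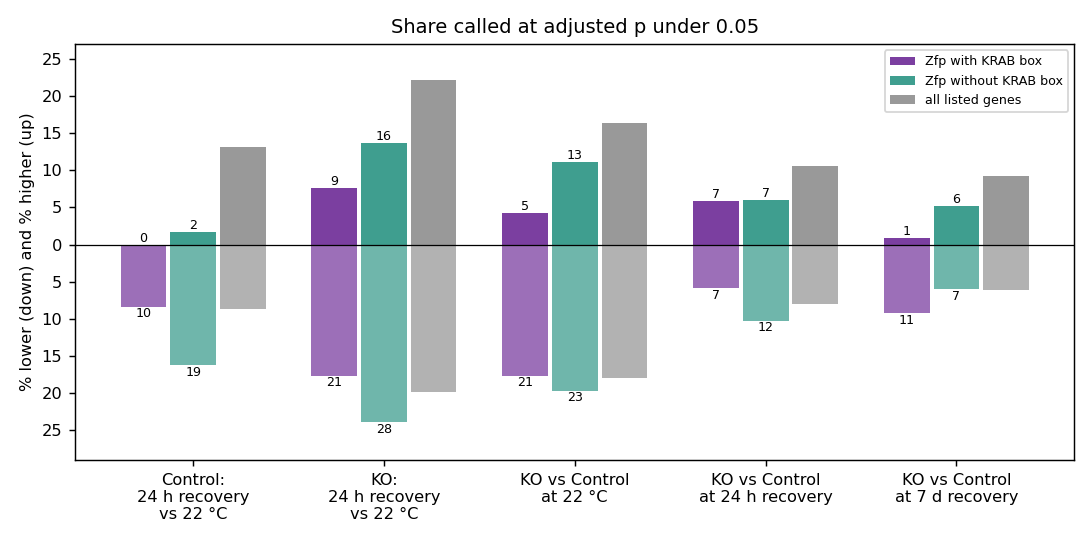
Percent of Zfp genes with a match to the KRAB patterns (purple), without a match (green) and of all listed genes (grey). Bars show those called higher (upward) or lower (downward) at the authors' adjusted p under 0.05, with the number of genes on each Zfp bar. In Control recovery 10 and 19 members of the 2 classes are lower and 0 and 2 higher.

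The 3 genotype comparisons share no library with each other. Lower lists at 22 °C and 24 h had 12 members in common (26.7% and 63.2% of the lists), those at 22 °C and 7 d had 9 (20.0% and 50.0%), and those at 24 h and 7 d had 8 (42.1% and 44.4%). Such overlaps among all called genes were not worked out, so these are no trait of the Zfp genes. In all, 5 members were lower in KO at all 3 times, namely Zfp185, Zfp189, Zfp644, Zfp810 and Zfp827. Zfp445 and Zfp703 were higher at all 3. Zfp644 had deposited means of 28.8, 21.2 and 20.1 RPKM in Control and 16.7, 14.6 and 13.6 in KO, with folds of 1.46, 1.32 and 1.42 in the order 22 °C, 24 h and 7 d. Zfp827, which acts with NuRD complexes at telomeres, had deposited means of 3.38, 1.95 and 1.87 RPKM in Control and 1.26, 1.18 and 1.15 in KO. Zfp810 had 5.09, 3.62 and 4.0 RPKM in Control and 3.02, 2.19 and 2.14 in KO, and Zfp189 had 3.86, 4.54 and 4.27 in Control and 1.86, 1.80 and 2.45 in KO, as deposited. Every KO mean of these 4 genes was below the Control mean of the same time, which follows from their choice by these calls.

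Zfp768 crossed over between the times. In the deposited tables it was 1.49-fold lower in KO at 22 °C (15.8 and 8.98 RPKM, adjusted p = 2.0e-04), and higher in KO at 24 h (1.30-fold, adjusted p = 0.036) and at 7 d (1.31-fold, adjusted p = 0.033). The higher calls ended on the scale of the group means (adjusted p = 0.183 and 0.079). Zfp703 passed the threshold in all 5 comparisons, with deposited means of 5.00, 1.59 and 2.09 RPKM in Control and 11.3, 3.69 and 5.18 in KO. It was thus lower after recovery in both genotypes and higher in KO at each time, in comparisons that share groups. Over the 5 comparisons, 104 members had no call, 64 had 1, 52 had 2, and 18 had 3 or more. This was not counted over all genes, and some comparisons share groups, so it cannot be read as a trait of the Zfp genes.

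The KO effect, that is, the KO against Control log2 fold change, was compared between 22 °C and recovery with errors rebuilt from the deposited p-values and Benjamini-Hochberg adjustment over all genes. At 24 h minus 22 °C, 15 of 208 members with an error were higher and 3 lower, beside 10.8% and 7.39% of 10734 genes. At 7 d minus 22 °C, 10 were higher and 7 lower, beside 9.53% and 5.29% of 10591 genes. Zfp641 had the clearest change, 1.67 ± 0.30 (rebuilt error) at 24 h (adjusted p = 9.4e-07) and 1.71 ± 0.31 at 7 d (adjusted p = 2.6e-06), on the log2 scale. Zfp768 changed by 0.95 ± 0.19 at 24 h (adjusted p = 2.1e-05) and by 0.96 ± 0.19 at 7 d (adjusted p = 2.1e-05). Zfp691 changed by 1.37 ± 0.33 (adjusted p = 4.0e-04) and 1.26 ± 0.33 (adjusted p = 0.0023). Zfp672 changed by 0.53 ± 0.20 (adjusted p = 0.049) and 0.97 ± 0.20 (adjusted p = 4.6e-05), with deposited means of 11.8, 13.5 and 11 RPKM in Control and 6.47, 11.6 and 13.4 in KO.

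Members whose KO effect went down included Zfp185, Zfp467 and Zfp608. Zfp185 changed by -2.05 ± 0.51 at 7 d minus 22 °C (adjusted p = 0.0012), so its deficit in KO was larger at 7 d. Zfp608 changed by -1.04 ± 0.28 at 7 d (adjusted p = 0.0023), from a deposited KO excess of 2.35-fold at 22 °C to 1.14-fold at 7 d. For Zfp598 no 24 h error could be rebuilt from the genotype tables, and the same difference taken from the recovery tables was -1.18 ± 0.23 (rebuilt error). Zfp703, in contrast, had deposited log2 KO effects of 1.42, 1.35 and 1.38 at 22 °C, 24 h and 7 d.

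**Figure D4:**
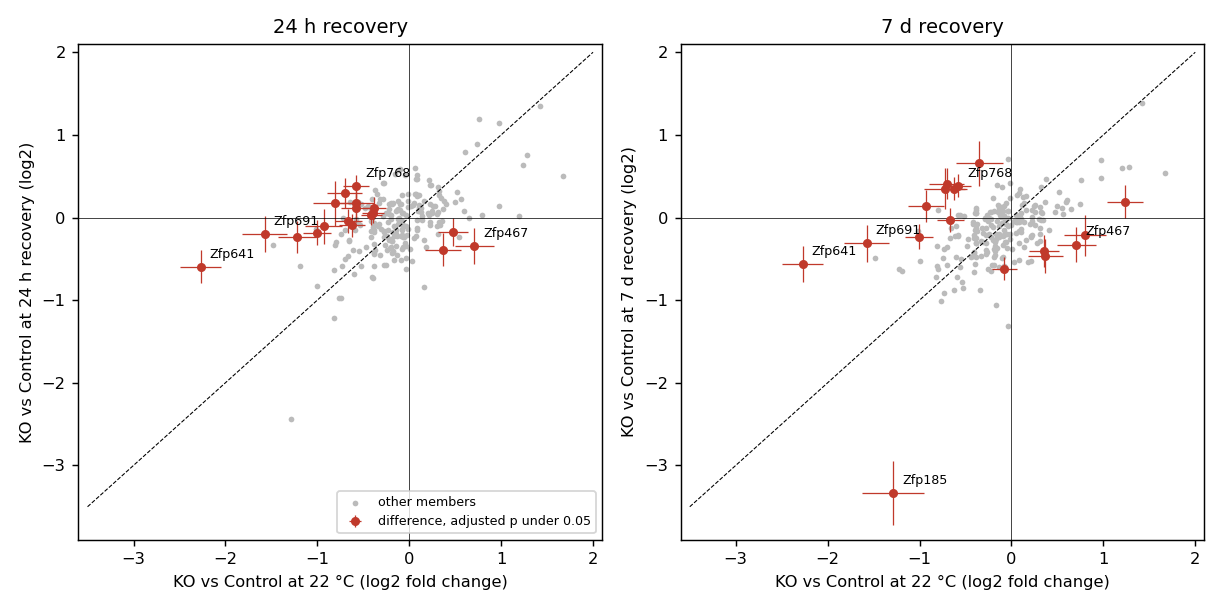
KO against Control log2 fold change of each member at 22 °C (x axis) and at 24 h or 7 d of recovery (y axis), with the line of equal values dashed. Red points, with rebuilt errors as bars, are the 18 and 17 members whose effect differed between the times at adjusted p under 0.05. Zfp641 lies farthest left at -2.27 and Zfp185 lowest at -3.33.

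By role, the 6 adipocyte-linked members had 1 higher and 2 lower in KO recovery (22.1% and 19.8% of all listed genes), 2 higher at 22 °C between genotypes (16.3%) and 1 higher at 24 h (10.5%). Zfp423, which commits cells to the fat lineage and holds back the thermogenic programme in white fat, had deposited means of 2.38, 2.17 and 2.09 RPKM in Control and 3.15, 1.96 and 2.16 in KO. It was 1.57-fold higher in KO at 22 °C (adjusted p = 0.0095) and 1.65-fold lower after KO recovery (adjusted p = 0.0021), both of which rest on the same KO group. Zfp467, which favours fat over bone formation, was 1.63-fold higher in KO at 22 °C (adjusted p = 0.0039) and 1.97-fold lower after KO recovery (adjusted p = 3.2e-05), as deposited. The calls at 22 °C ended on the scale of the group means (adjusted p = 0.102 and 0.057). The KO effect of Zfp467 changed by -1.06 ± 0.30 at 24 h (rebuilt error, adjusted p = 0.0049) and by -1.03 ± 0.30 at 7 d (adjusted p = 0.0073). Zfp407, a regulator of PPARg targets, was 1.30-fold higher after KO recovery (deposited adjusted p = 0.015). Zfp217 and Zfp746, also called PARIS and a repressor of Ppargc1a, passed no threshold and stayed at 3.03 to 3.93 and 2.79 to 4.58 RPKM. Zfp30 was called at 24 h between genotypes, as given above. Of these 6 genes, 0 were called in Control recovery and 0 between genotypes at 7 d. Of all listed genes, 8.67% were lower and 13.1% higher in the first, and 6.14% and 9.18% in the second. Fibroblast and preadipocyte markers summed in Control to 314 RPKM at 22 °C and 460 at 24 h (3 higher in Control recovery), and in KO to 335 and 289 (1 higher and 3 lower in KO recovery), and their part in the result was not tested.

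The 5 members with a known role in imprinting or retroelement silencing had no call after recovery in either genotype, a count too small to read. Of all listed genes, 8.67% were lower and 13.1% higher in Control recovery, and 19.8% and 22.1% in KO recovery. Between genotypes, 2 of the 5 were higher at 22 °C, 2 higher and 1 lower at 24 h, and 1 higher at 7 d. Beside them 16.3%, 10.5% and 9.18% of all listed genes were higher, and 7.96% lower at 24 h. Zfp445, which protects imprints together with Zfp57, was 1.25-, 1.25- and 1.29-fold higher in KO at 22 °C, 24 h and 7 d (deposited adjusted p = 0.024, 0.043 and 0.020). These calls ended on the scale of the group means (adjusted p = 0.592, 0.250 and 0.061). Zfp708, which binds a retrotransposon family, had deposited means of 1.35, 1.20 and 1.24 RPKM in Control and 2.29, 2.44 and 1.63 in KO, and was higher in KO at 22 °C (1.96-fold, adjusted p = 7.4e-04) and at 24 h. Zfp809, which recruits silencing to retroviral primer binding sites, was 1.5-fold lower in KO at 24 h (deposited adjusted p = 0.011). Zfp568 and Zfp932 passed no threshold, with means of 1.74 to 2.63 and 1.92 to 2.85 RPKM.

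Among 13 members with roles in general transcription and chromatin, KO recovery called 4 lower (30.8%) and 2 higher (15.4%), beside 19.8% and 22.1% of all listed genes. The lower ones were Zfp263, Zfp592, Zfp609 and Zfp687 (1.46-, 1.35-, 1.55- and 1.68-fold), and the higher ones Zfp91 and Zfp143, an activator of small nuclear RNA genes (1.38-fold), in the authors' deposited table. The call of Zfp592 ended on the scale of the group means (adjusted p = 0.056). In Control recovery Zfp281, Zfp644 and Zfp687 were lower (1.37-, 1.29- and 1.47-fold) and Zfp91 higher, as deposited. Between genotypes, Zfp609 was higher (1.43-fold, adjusted p = 0.047) and Zfp644 lower at 22 °C, Zfp335 (1.43-fold) and Zfp644 were lower at 24 h, and Zfp644 was lower at 7 d. The call of Zfp609 ended on the scale of the group means (adjusted p = 0.292). Zfp148, Zfp292, Zfp384 and Zfp410, an activator of the NuRD gene Chd4, were called in no comparison, and their deposited means lay within 7.41 to 9.16, 4.24 to 6.71, 3.73 to 4.12 and 3.63 to 4.69 RPKM.

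The 12 members with roles in RNA metabolism or other work away from DNA had 5 lower and 1 higher in KO recovery, where 19.8% of all listed genes were lower and 22.1% higher. In the other comparisons 1 was higher in Control recovery (13.1% of all listed genes) and 2 at 22 °C between genotypes (16.3%). At 24 h 1 was higher (10.5%), and at 7 d 1 was higher (9.18%) and 1 lower (6.14%). The members lower in KO recovery were Zfp36, Zfp598, Zfp326, Zfp451 and Zfp830, and the higher one was Zfp106. Zfp326, part of a complex that links elongation to splicing, and Zfp451, a SUMO ligase, were 1.56- and 1.57-fold lower (deposited adjusted p = 0.015 and 1.4e-04). Zfp830 was 1.46-fold lower, as deposited. Zfp318 was 1.54-fold lower in KO at 7 d (2.23 and 1.38 RPKM, deposited adjusted p = 2.4e-04), and its KO effect changed by -0.54 ± 0.20 from 22 °C (rebuilt error, adjusted p = 0.042). Zfp706 was 1.29-fold higher in KO at 24 h (deposited adjusted p = 0.039), a call that ended on the scale of the group means (adjusted p = 0.194). Zfp346, Zfp593 and Zfp622, the last a factor of ribosome maturation, had no call, nor did Zfp207.

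Among the corepressor genes, Chd3 was higher in KO at each time, with deposited log2 fold changes of 2.3, 1.42 and 1.59 at 22 °C, 24 h and 7 d. It was the only gene of these 18 that passed the threshold between genotypes after recovery. This is 5.56% higher at each recovery time, beside 10.5% and 9.18% of all listed genes. At 22 °C Dnmt3a was also higher (0.41) and Morc3 (-0.39) and Uhrf1 (-1.70) were lower, as deposited on the log2 scale. The shares of the 18 genes at 22 °C were 11.1% higher and 11.1% lower, beside 16.3% and 18.0% of all listed genes.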

How the data were processed

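Ribosome-depleted total RNA of interscapular brown fat was sequenced (24 libraries, 6 groups of 4), per the labels' protocols. The submitters' processing notes name STAR, featureCounts, edgeR and build mm9, without versions or settings, so how strand and shared reads were treated is unknown here, and members with close paralogs, common in the KRAB class, are uncertain. Per the file headers, the authors deposited for each of 5 comparisons group means, gene length, the average log2 CPM, a log2 fold change (second group over first), and a p-value beside its false discovery rate. The means deposited by the authors have no unit in the headers and were read as RPKM from their relation to length and CPM. The authors' p-values come from edgeR by an unnamed one of its tests.

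The main test was the authors' adjusted p under 0.05. The designed count tests need library values and were not run. Library totals (mean 8.39e+06 ± 1.90e+06 SD, n = 24) were recovered from steps of rarely read genes. They cannot be tied to replicates, and levels near 1 RPKM are imprecise. Differences of KO effects used errors rebuilt from each p up to 0.9 (log2 fold change over its normal score), a two-sided normal p, and Benjamini-Hochberg adjustment. Folds added up around 4 groups to within 0.045 log2 for 12069 genes, and errors rebuilt by either pairing had a median ratio of 1.00 (quartiles 0.988 and 1.01, 9429 genes). The calculation was tested on simulated data.

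The design named RefSeq proteins for KRAB boxes and fingers. Longest reading frames of GENCODE M21 transcripts (GRCm38) were used instead. Boxes and fingers were found by fixed patterns, so divergent ones can be missed. Promoters are from RefSeq (GRCm38.p6), and gene order is from the RefSeq gene table. Named members were the 5 largest folds per direction and comparison (adjusted p under 0.05, average log2 CPM of at least 1), those called in 4 or 5 tables, the role lists, the 5 most abundant, those beside the minimum, and the 3 smallest p of each difference. Zfp189, Zfp445 and Zfp810 at all times, Zfp366, Zfp467 and Zfp608 among differences and the genes in common between lists were chosen after their values were seen. Members and lists were chosen with earlier results of these data known. Zfp69, Zfp521, Zfp638, Zfp57, Zfp819, Zfp131 and Zfp462 of the role lists were not members. Python 3.11.15, pandas 2.3.3 and scipy 1.17.1 were used.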

Additional observations from a re-analysis of the deposited data

Results flagged for a closer look

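The KO effect (KO against Control, log2) differed between 22 °C and recovery at adjusted p under 0.05 for the following named members, by the rebuilt-error test. From 22 °C to 24 h of recovery it changed by 1.67 for Zfp641, by 1.37 for Zfp691, by 1.00 for Zfp27, by 0.98 for Zfp961, by 0.97 for Zfp783, by 0.95 for Zfp768 and by 0.53 for Zfp672, and by -1.06 for Zfp467. From 22 °C to 7 d it changed by 1.71 for Zfp641, by 1.26 for Zfp691, by 1.11 for Zfp27, by 0.97 for Zfp672 and by 0.96 for Zfp768. At 7 d it changed the other way for Zfp185 (-2.05), Zfp608 (-1.04), Zfp467 (-1.03), Zfp395 (-1.01) and Zfp318 (-0.54). The 24 h and 7 d differences share the 22 °C libraries. Zfp641, Zfp691, Zfp961 and Zfp27 had their lowest deposited mean of the 6 groups in KO at 22 °C. Samples far from the others could not be looked for, because the deposited tables hold no library values.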

How the results depend on the processing

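No paired analysis was possible because the deposited tables hold group means and comparisons and no value per library. For the same reason another count test, another normalization and leaving out each replicate were not run. At an adjusted p under 0.01 the members called were 18 in Control recovery, 48 in KO recovery, 9 between genotypes at 24 h and 13 at 7 d. At 0.10, 56 were called in Control recovery. On the scale of the group means, a setting chosen after seeing the data, 54 were called in Control recovery (2 higher, 52 lower) and 99 between genotypes at 22 °C (9 higher, 90 lower), and the median ratio of means at 22 °C was -0.37 on the log2 scale. That scale shifts all genes of a comparison by -0.064 (Control recovery), 0.034 (KO recovery), -0.24, -0.14 and -0.066 (genotypes at 22 °C, 24 h and 7 d). A shift below 0 by itself adds to the lower side, and the share of all genes called there was not worked out. The median at 24 h between genotypes was 0.0041 after subtracting that of all genes, and -0.05 before. With no minimum, a mean of 2 RPKM, the mean over all groups as minimum, or symbols with letters, each count of members called stayed within 1.5 times. Of the named results past 0.05, 67 also passed 0.01 and 39 did not, and on the scale of the group means 93 kept the call and 13 lost it. No called result changed direction, but these settings could hardly have turned one. The thresholds leave the fold changes as they are, and the scale adds a constant to each comparison. Depth limits members near 1 RPKM, and 1 member rested on fewer than 10 reads per library.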

Other observations

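In KO recovery, runs of neighbouring members held no call, a single call, calls in both directions or several calls in 1 direction. Those named here are examples, and of all listed genes 19.8% were lower and 22.1% higher in that comparison. The run of Zfp14, Zfp27, Zfp383, Zfp420, Zfp568 and Zfp74 had 1 call in KO recovery, Zfp27 (deposited log2 fold change 1.04), and the lowest of the run was at -0.29. The run of Zfp51, Zfp52, Zfp53, Zfp54, Zfp677 and Zfp948, all with a KRAB box, had Zfp52 higher (0.78) and Zfp948 lower (-0.68) in KO recovery, as deposited. Of the neighbours Zfp747, Zfp764 and Zfp768, Zfp747 and Zfp764 were lower and Zfp768 higher in KO recovery. The run of Zfp26, Zfp266, Zfp426 and Zfp846 had 3 lower members and 0 higher ones in KO recovery, with deposited log2 fold changes between -0.51 and 0.20. Zfp191, Zfp35 and Zfp397 had 2 higher and 0 lower there. Zfp212, Zfp282, Zfp398, Zfp746, Zfp777 and Zfp956 had 2 lower and 0 higher. In Control recovery, 9 of 97 members next to another member were lower (9.28%) and 20 of 140 others (14.3%), beside 8.67% of all listed genes. Between genotypes at 24 h, 3 neighbours (3.09%) and 16 others (11.4%) were lower, and 7 neighbours (7.22%) and 7 others (5.00%) were higher, beside 7.96% and 10.5% of all listed genes. A difference between neighbours and other members was not tested.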
